A study of Mus musculus with 5 samples.

Results

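Microvilli are the actin-filled fingers that cover the apical surface of absorptive cells, and 9 genes of their core, membrane attachment and adhesion were followed in mouse ileal epithelium. The genes were Vil1, Espn, Eps8, Ezr, Myo1a, Cdhr2, Cdhr5, Ush1c and Myo7b. They were taken by symbol from a gene table of 27998 genes, and each of the 9 symbols was present there. Single-cell RNA libraries were made from epithelial cells of the ileum, the distal small intestine, of C57BL/6 mice. All animals were 8 to 12 weeks old. The 3 sham libraries came from mice given sham surgery, and the 2 resection libraries from mice that had part of the small bowel cut out. The labels give no genotype beyond the strain, no interval after surgery and no extent of resection. They do not say whether each library came from a separate mouse, so p-values measure only the spread between these libraries, which may be technical.

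A brush border forms as cells leave the crypt, where stem and dividing cells lie, and move up the villus as absorptive enterocytes. In each microvillus, bundling proteins hold a core of parallel actin filaments, a tip complex governs its length, and linkers and motors tie the core to the membrane. Cadherins at the microvillar tips join neighbouring microvilli through a complex of scaffold and motor proteins, and this adhesion packs the brush border into an even array.

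Because all 9 genes were higher in absorptive cells than in crypt cells (values follow), 3 promoters are shown, 1 for each of 3 short motifs bound in general by factors active in intestinal epithelium. The sequences are the 250 bases upstream of the annotated start, 5′ to 3′ on the strand of the gene, from RefSeq on GRCm38.p6. Capitals mark the motif. The Cdhr2 window lies at chr13:54701213-54701462 on the plus strand and holds a half-site of the kind bound by HNF4 factors, which begins 20 bases upstream of the start. The Cdhr5 window lies at chr7:141276787-141277036 on the minus strand and holds a CDX-type element on the opposite strand, printed here as its reverse complement, 38 bases upstream. The Vil1 window lies at chr1:74409134-74409383 on the plus strand and holds a GC box 187 bases upstream.
Cdhr2: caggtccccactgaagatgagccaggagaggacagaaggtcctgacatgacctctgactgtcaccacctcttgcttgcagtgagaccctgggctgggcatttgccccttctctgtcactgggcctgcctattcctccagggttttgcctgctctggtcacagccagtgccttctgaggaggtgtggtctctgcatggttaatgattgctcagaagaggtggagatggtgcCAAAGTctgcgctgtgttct
Cdhr5: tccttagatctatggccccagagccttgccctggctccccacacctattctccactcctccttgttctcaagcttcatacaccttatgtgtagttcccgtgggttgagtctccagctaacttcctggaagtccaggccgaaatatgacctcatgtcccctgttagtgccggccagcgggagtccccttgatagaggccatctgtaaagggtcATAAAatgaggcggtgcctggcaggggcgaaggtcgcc
Vil1: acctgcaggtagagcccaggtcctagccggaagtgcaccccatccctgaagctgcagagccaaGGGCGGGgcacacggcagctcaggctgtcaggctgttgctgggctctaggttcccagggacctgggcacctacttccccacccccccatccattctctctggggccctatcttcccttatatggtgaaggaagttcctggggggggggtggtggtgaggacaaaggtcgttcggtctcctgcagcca
Windows of 300 bases (250 before to 50 after the start) were found for 7 of the 9 genes and searched on both strands. The HNF4-type half-site CAAAGT was in 14.4% of 32851 annotated promoters and in the window of 1 of the genes, Cdhr2. The longer CAAAGTCCA, which contains CAAAGT, was in 0.475% of promoters and in none of these windows. The CDX-type element TTTAT was in 40.0% of promoters and in windows of Cdhr5 and Espn. The GC box GGGCGGG was in 25.6% of promoters and in windows of Espn, Ezr and Vil1. These matches describe letters in a window, not sites in use.

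The deposited matrices held 19404 cells with 11749028 to 41281731 unique molecular identifiers (UMIs, each a counted molecule) per library and medians of 4541 to 6239.5 UMIs per cell. After filtering, 18235 cells remained, and pairs of libraries shared 6 to 47 cell barcodes, at most 1.498% of the smaller library. Cells were clustered without the 9 genes and their related lists, and clusters were named by markers: 8822 enterocyte-like, 4150 immature enterocyte-like, 1132 cycling-like, 529 stem-like, 596 goblet-like, 1015 Paneth-like, 474 T cell-like and 28 tuft-like cells, with 1489 unnamed. Sham 1 and resection 1 stood apart from the other 3 libraries: they held nearly separate clusters of crypt, immature and Paneth-like cells, and their median mitochondrial share was 13.7% and 11.7%, against 7.24% to 9.19% in the others. Enterocyte-like cells came mainly from clusters 15 and 21 in sham 1, cluster 3 in sham 2, cluster 11 in sham 3, clusters 7, 9 and 13 in resection 1 and clusters 1 and 2 in resection 2. "Crypt" below is the sum of stem-like and cycling-like cells, 62 to 573 cells per library. In sham 1 it held cycling-like cells only. The 12972 enterocyte-like and immature enterocyte-like cells were divided within each library into 5 equal zones by a score of upper-villus minus lower-villus landmark genes that includes none of the 9. Of the check genes outside the score, Apoa4, Creb3l3 and Slc2a2 (upper) were higher in zone 5 than in zone 1 in all 5 libraries and Nlrp6 and Il18 (lower) were lower in all 5, while Ccl25 (lower) was lower in 4 of 5. Zones are relative to each library: immature enterocyte-like cells made up 55.1% to 95.03% of zone 1 and 0.411% to 14.6% of zone 5, with the highest share in sham 3 in both. Levels are UMIs of a gene per 1000000 UMIs of the summed cells (CPM). In this measure the 8 immature enterocyte markers did not set their class apart. They summed to 39360.5, 89312 and 89316 CPM there in sham 1 to 3 and 65468 and 85009 in resection 1 and 2. In enterocyte-like cells the sums were 55029, 101662 and 79908, then 71651 and 55652. The median of 10 enterocyte markers in the immature class was 19.9% to 35.0% of the enterocyte-like level. Cluster 5, with 1072 of the immature cells, scored 0.607 for immature and 0.592 for enterocyte markers. The kit tags transcript ends, so a level does not grow with gene length, and levels of different genes were not ranked against each other.

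All 9 genes rose from crypt to enterocyte-like cells, by 1.57 to 4.51 on the log2 scale, and each was higher in 5 of 5 libraries. In edgeR's quasi-likelihood test with library as a block, 9 of 9 passed an adjusted p of 0.05 upward, and 40.4% of the 10535 genes tested did so. Every gene had UMIs in every crypt sum. The 9 genes together took 749.9 to 1580 CPM in crypt sums, 1710 to 3412 in zone 1 and 5548 to 8179 in zone 5. The lowest sum belonged to sham 3 in each of these. Scaling matters to the size: without the trimmed-mean (TMM) factors the median of all genes moved by -0.62, the 9 changes ran from 0.95 (Ush1c) to 3.89 (Espn) and the share of all calls that were higher went from 50.8% to 30.7%.

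**Figure D1:**
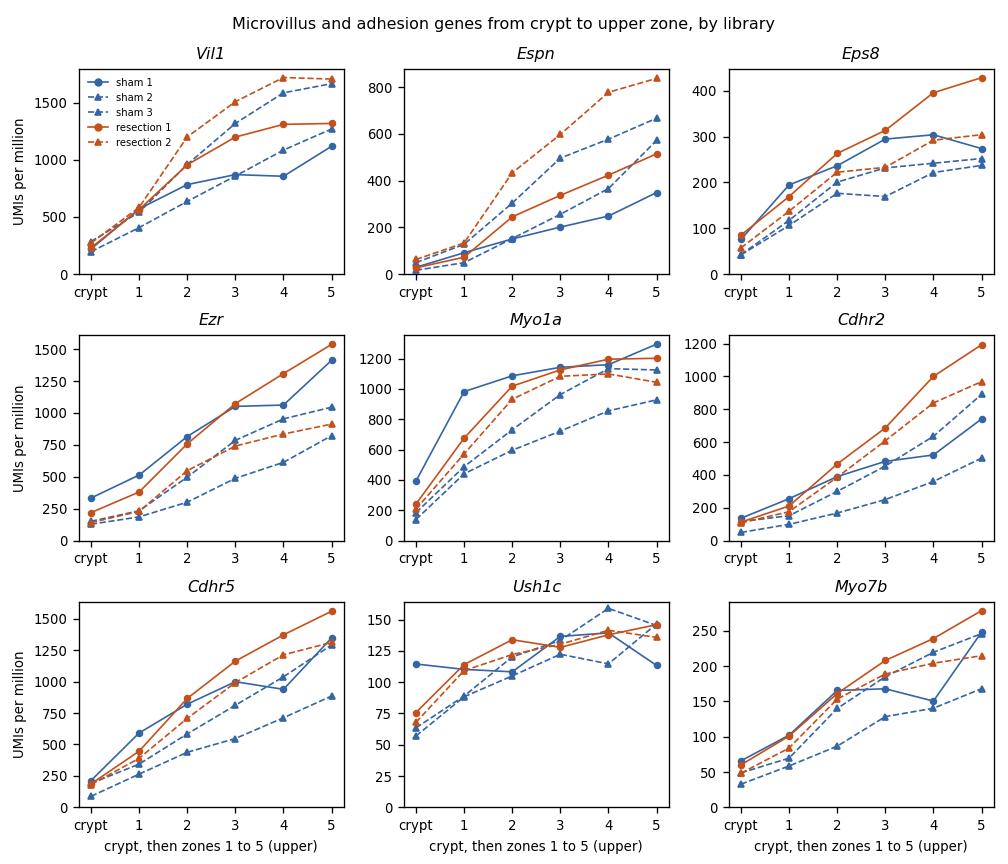
Level of each of the 9 genes (CPM, y axis) in crypt cells and in zones 1 (lower) to 5 (upper) of the villus axis, with 1 line per library, blue for sham and red for resection, circles with solid lines for sham 1 and resection 1 and triangles with dashed lines for the other 3 libraries. Each line ends above its crypt level, except that of Ush1c in sham 1, which ends at 113 after 115 in crypt.

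Vil1 (ENSMUSG00000026175, chromosome 1) encodes villin, which bundles and can sever actin filaments. Its crypt level was 219 in sham 1, 285 in sham 2, 196 in sham 3, 230.4 in resection 1 and 272 in resection 2. In zone 5 the same libraries gave 1119, 1667, 1270.4, 1319 and 1707 CPM. No zone 5 value came near a crypt value, and the groups overlapped at both ends. Vil1 rose by 3.09 ± 0.12 (SE) from crypt to enterocyte-like cells (adjusted p = 4.02e-11). Its means rose at each step of the axis, but zones 4 and 5 did not differ beyond the spread of their paired differences.

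Espn (ENSMUSG00000028943, chromosome 4) encodes espin, a bundler that lengthens parallel actin bundles. Its crypt levels were 29.3, 49.3 and 16.4 CPM in sham 1 to 3 and 26.8 and 62.6 in resection 1 and 2. Only 12 UMIs stand behind the sham 1 value. Zone 5 levels were 349, 667 and 572 in the sham libraries and 515 and 838 in the resection libraries. The change of 4.51 ± 0.20 from crypt to enterocyte-like cells was the highest of the 9 (adjusted p = 9.25e-11), and so was the change of 2.93 ± 0.21 from zone 1 to zone 5 (adjusted p = 5.47e-07).

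Eps8 (ENSMUSG00000015766, chromosome 6) encodes an actin-capping and bundling protein of microvillar tips. In crypt it stood at 75.6, 41.9 and 42.5 CPM in sham 1 to 3 and 85.0 and 57.2 in resection 1 and 2. Zone 5 levels were 274, 237 and 252 in the sham libraries and 428 and 304 in the resection libraries. Both resection libraries were above the 3 sham libraries in zone 5. Eps8 rose by 2.91 ± 0.12 from crypt to enterocyte-like cells but by only 1.31 ± 0.15 from zone 1 to zone 5, and in sham 1 the level in zone 3 (295) was above that in zone 5.

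The membrane is tied to the core by Ezr and Myo1a. Ezr (ENSMUSG00000052397, chromosome 17) encodes ezrin, which links actin to membrane proteins. Its crypt levels were 334, 152 and 129 CPM in sham 1 to 3 and 219.7 and 142 in resection 1 and 2. Its zone 5 levels were 1413, 1045 and 823 in the sham libraries and 1537 and 913 in the resection libraries. Sham 1 and resection 1 were the highest 2 at both ends, so the order of libraries followed that pair rather than the surgery. Ezr rose by 3.01 ± 0.14 from crypt to enterocyte-like cells and by 2.21 ± 0.15 between zones 1 and 5.

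Myo1a (ENSMUSG00000025401, chromosome 10) encodes the brush border myosin I, a motor that tethers the membrane along the side of the core. Crypt levels of Myo1a were 393, 184 and 139 CPM in sham 1 to 3 and 241 and 208 in resection 1 and 2. Zone 1 levels were 982, 487 and 440.5 in the sham libraries and 675 and 571 in the resection libraries. Zone 5 levels were 1295, 1125 and 928 in the sham libraries and 1202 and 1044 in the resection libraries. In resection 2, zone 5 was below zone 3 (1083). Myo1a rose by 2.94 ± 0.15 from crypt to enterocyte-like cells, by 1.13 ± 0.15 from zone 1 to zone 5 (adjusted p = 5.13e-05), and the difference of 0.20 ± 0.08 between zones 3 and 5 missed the threshold (adjusted p = 0.0582).

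The adhesion complex has 2 cadherins among the 9. Cdhr2 (ENSMUSG00000034918, chromosome 13) encodes protocadherin-24, which pairs across the gap between microvilli with the product of Cdhr5. Its crypt levels were 137, 117 and 50.1 CPM in sham 1 to 3 and 113 and 108 in resection 1 and 2. Zone 5 levels were 741, 891 and 503 in the sham libraries and 1193 and 968 in the resection libraries. Both resection libraries were above all sham libraries in zone 5, while in crypt they lay between them. Cdhr2 rose by 3.35 ± 0.16 from crypt to enterocyte-like cells, by 2.54 ± 0.18 from zone 1 to zone 5 and by 0.85 ± 0.08 from zone 3 to zone 5 (adjusted p = 3.14e-07), the last being the highest of the 9 for that step.

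Cdhr5 (ENSMUSG00000025497, chromosome 7) encodes the mucin-like protocadherin that is the partner of Cdhr2 in these links. In crypt sums Cdhr5 had 212, 189.9 and 87.1 CPM in sham 1 to 3 and 186 and 180.2 in resection 1 and 2. Zone 5 levels were 1347, 1292 and 885 in the sham libraries and 1560.1 and 1312 in the resection libraries. Sham 3 was lowest at both ends, and the groups overlapped. Cdhr5 rose by 3.34 ± 0.15 from crypt to enterocyte-like cells and by 1.93 ± 0.16 between zones 1 and 5.

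Inside the cell, Ush1c and Myo7b carry the cadherin tails. Ush1c (ENSMUSG00000030838, chromosome 7) encodes harmonin, the scaffold of the complex. Its crypt levels were 115, 63.5 and 57.0 CPM in sham 1 to 3 and 75.8 and 67.9 in resection 1 and 2, and its zone 5 levels were 113, 145 and 147 in the sham libraries and 146 and 136 in the resection libraries. In sham 1 zone 5 was not above crypt, and in the other 4 libraries it was. Between these ends the sham 1 level changed by 0.31 on the log2 scale from zone 1 to zone 3 and by -0.27 from zone 3 to zone 5. The change was the least of the 9, 1.57 ± 0.14 from crypt to enterocyte-like cells (adjusted p = 1.51e-07) and 0.69 ± 0.13 between zones 1 and 5 (adjusted p = 0.000592). Zones 2 to 5 followed each other without a difference beyond their spread, and zone 3 to zone 5 missed the threshold at 0.14 ± 0.09 (adjusted p = 0.241). The sham 1 change in CPM from crypt to zone 5 was -0.01 on the log2 scale.

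Myo7b (ENSMUSG00000024388) encodes the myosin that carries the complex toward the tips. In crypt sums Myo7b had 65.8, 48.7 and 32.7 CPM in sham 1 to 3 and 60.1 and 48.2 in resection 1 and 2. Zone 5 levels were 248, 246 and 168 in the sham libraries and 279 and 215 in the resection libraries. The groups overlapped, and sham 3 was again lowest. Myo7b rose by 2.67 ± 0.12 from crypt to enterocyte-like cells and by 1.74 ± 0.12 between zones 1 and 5.

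The 9 genes did not climb at the same point of the axis. The lower steps compare low levels. In immature enterocyte-like cells the median of the 9 genes was 35.5% to 46.1% of that in enterocyte-like cells. That was under the 57.2% to 73.1% of T cell-like droplets in all 5 libraries. These droplets were named by T cell markers, but the median of 10 enterocyte markers in them was 50.9% to 71.7% of the enterocyte-like level. Whether some of them also held an enterocyte was not tested. The changes below are therefore changes in measured UMIs, and the part of background RNA in them was not tested. From crypt to immature enterocyte-like cells, 9 of 9 passed the test upward (32.7% of all 10454 genes tested), by 0.80 (Ush1c) to 1.78 (Espn). Myo1a was higher by 1.75 ± 0.11 at this step and Ezr 0.98 ± 0.12. From immature to mature enterocyte-like cells the order was turned round: Ezr was higher by 1.97 ± 0.12 and Myo1a 1.12 ± 0.10, and again 9 of 9 passed, with 33.7% of 10520 genes. In the share of the log2 rise in CPM from crypt to zone 5 that was measured in zone 1, Myo1a led with 63.6% ± 8.4 (SD, n = 5) and Eps8 followed with 55.8% ± 11.3. Cdhr2 stood at 25.7% ± 8.9 and Ezr 25.3% ± 4.1. The other genes lay between: Vil1 45.4%, Cdhr5 42.8%, Espn 35.2% and Myo7b 32.4%. For Ush1c the share cannot be given, since its rise in sham 1 was about 0. Without the TMM factors the share of all calls that were higher went from 50.9% to 34.2% in the first step and from 49.6% to 30.04% in the second, and the 9 genes stayed positive in both.

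**Figure D2:**
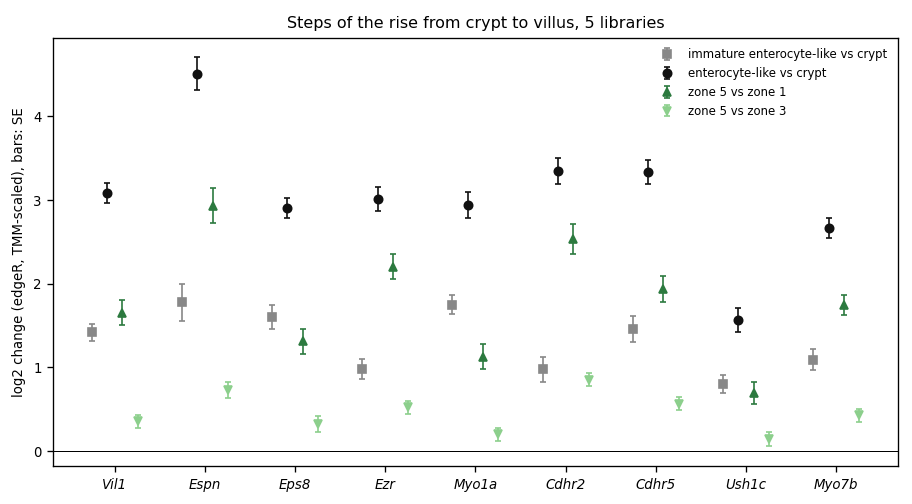
Log2 change of each gene (y axis, edgeR estimate with TMM scaling over 5 libraries, bars SE) in 4 contrasts along the crypt to villus axis. Myo1a and Eps8 changed more from crypt to immature cells (1.75 and 1.60) than between zones 1 and 5 (1.13 and 1.31). Cdhr2 and Ezr changed by 0.98 in the first contrast and by 2.54 and 2.21 in the second. These contrasts are not successive parts of 1 rise, since zones 1 and 5 both hold immature and enterocyte-like cells.

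Within the villus, 9 of 9 genes were higher in zone 5 than in zone 1, where 60.6% of 9547 genes passed in either direction, 49.5% of them upward. Between zones 1 and 3 again 9 of 9 were higher, against 28.0% of 9548 genes. Between zones 3 and 5 the count was 7 of 9, against 14.0% of 8903 genes, and the exceptions were Myo1a and Ush1c. Without the TMM factors the share of calls that were higher was 33.7% for zones 5 and 1, and 32.1% in place of 52.4% for zones 3 and 1. Median UMIs per cell fell from zone 1 to zone 5, in sham 2 from 5419.5 to 3201. In cells thinned to 2000 UMIs each, 9 of 9 genes still passed between zones 1 and 5.

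Partners did not keep a fixed proportion along the villus. In 6 pairs, chosen with earlier values of these data known, the ratio of UMIs was compared between zones 1 and 5, and all 6 moved in the same direction in 5 of 5 libraries. The exact two-sided sign-flip test gives p = 0.0625 for each, the smallest that 5 libraries allow, and so cannot reach 0.05. Cdhr2 to Cdhr5, the 2 cadherins, was 0.432, 0.443 and 0.377 in zone 1 of sham 1 to 3 and 0.473 and 0.453 in resection 1 and 2. In zone 5 it was 0.550, 0.690 and 0.568 in the sham libraries and 0.765 and 0.738 in the resection libraries. The mean change was 0.59 ± 0.15 on the log2 scale (SD, n = 5), after a mean ratio of 0.608 in crypt, and the 2 resection libraries were the highest in both zones. Within the core, Espn to Vil1 went from a mean of 0.174 to 0.409 (log2 change 1.27 ± 0.47), and Espn to Eps8 from 0.698 to 2.06 (1.62 ± 0.47). Of the membrane genes, Ezr to Vil1 went up from 0.572 to 0.848 (0.55 ± 0.14) and Myo1a to Vil1 went down from 1.18 to 0.817 (-0.53 ± 0.12). Ush1c to Myo7b, scaffold to motor, went down from 1.26 to 0.615 (-1.06 ± 0.17). These ratios do not depend on the scaling of the sums.

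**Figure D3:**
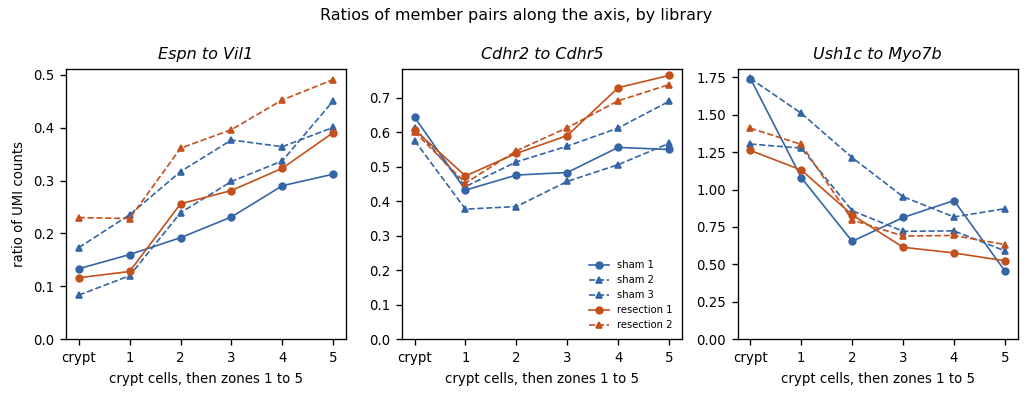
Ratio of UMI counts (y axis, linear from 0) of 3 gene pairs in crypt cells and zones 1 to 5, with 1 line per library, blue for sham and red for resection, circles with solid lines for sham 1 and resection 1 and triangles with dashed lines for the other 3 libraries. From zone 1 to zone 5, Espn to Vil1 and Cdhr2 to Cdhr5 go up and Ush1c to Myo7b goes down in all 5 libraries, and Cdhr2 to Cdhr5 starts at a mean of 0.608 in crypt before it dips to 0.436 in zone 1.

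Across the 30 sums of crypt and zones 1 to 5, which share libraries, depth and the ordering by zone, the log2 profiles of the 9 genes correlated with each other at Pearson's r of 0.82 (Ezr with Espn) to 0.98 (Cdhr5 with Myo7b). Of 4778 other genes with at least 20 CPM, those whose profile over the same 30 sums was most like the mean profile of the 9 were Maf (r = 0.99), Dpyd (0.99), Aspa (0.98), Gk (0.98) and Cdk18 (0.98). Maf averaged 62.9 ± 15.3 CPM in crypt and 637 ± 72.8 in zone 5 (SD, n = 5).

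At the level of single cells, thinned to 2000 UMIs, the share with at least 5 of the 9 genes detected rose from zone 1 to zone 5 in each library. In zone 1 it was 41.7% in sham 1 (95% exact binomial interval 34.6 to 49.1), 17.8% in sham 2, 8.39% in sham 3, 25.9% in resection 1 and 22.2% in resection 2. In zone 5 it was 82.8%, 89.6% and 76.6% in sham 1 to 3 and 95.9% and 93.0% in resection 1 and 2. Both resection libraries were above all sham libraries in zone 5 but not in zone 1. In cycling-like cells the share was 0.380% to 8.06%. T cell-like droplets, whose content of enterocytes was not tested, gave 65.6%, 47.4% and 46.3% in sham 1 to 3 and 57.6% and 57.5% in resection 1 and 2. These shares were above zone 1 and under zone 5 of the same library in all 5. Paneth-like cells gave 0% to 9.23%. In them 8 Paneth markers alone took 377860 to 427087 CPM, which leaves fewer of the 2000 UMIs for any other gene. Their share therefore cannot show whether the share in T cell-like droplets is a floor common to all classes. The part of background RNA in the zone 1 and cycling-like shares was not tested, and they are not read as expression. Intervals cover counting error only.

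For single genes the same droplets were set beside the other cells. Vil1 was found in 65.6% to 80.5% of them after thinning (median 4177 to 6805 UMIs before thinning) and in 84.3% to 95.7% of enterocyte-like cells (median 3940 to 5654 UMIs). Before thinning these shares were 87.5% to 97.0% and 98.8% to 99.6%. In cycling-like cells Vil1 was found in 28.5% to 42.6% after thinning. These last shares lay under those of T cell-like droplets. The part of background RNA in them was not tested, and they are not read as expression. Relative to enterocyte-like cells of the same library, the median of the 9 genes stood at 57.2% to 73.1% in T cell-like droplets, beside 50.9% to 71.7% for 10 enterocyte markers. In crypt cells the median of the 9 was 16.0% to 24.8%, beside 7.63% to 13.8% for the markers. Crypt and immature enterocyte-like cells were under T cell-like droplets by this measure in all 5 libraries. So were Paneth-like cells, with medians of 7.80% to 18.9%.

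Goblet-like and Paneth-like cells, the secretory cells of the ileum, had less of all 9 genes than enterocyte-like cells. In goblet-like cells 9 of 9 passed as lower (24.9% of 9843 genes), by -0.78 (Myo7b) to -1.39 (Espn). Their median level was 41.8% to 66.6% of that in enterocyte-like cells, in each of the 5 libraries under that of T cell-like droplets. The part of background RNA in it was not tested, and it is not read as expression by goblet cells. Against crypt cells, 9 of 9 were higher in goblet-like cells (27.7% of 8949 genes), by 0.69 (Ush1c) to 2.94 (Espn). In Paneth-like cells 9 of 9 were lower than in enterocyte-like cells (24.5% of 9389 genes), by -0.46 (Myo7b) to -1.50 (Espn), and by -2.58 to -3.60 without the TMM factors. Without those factors the median of all genes moved by 0.27 for goblet-like and -2.10 for Paneth-like cells, against enterocyte-like cells in both. The share of calls that were higher then went from 48.9% to 70.2% for goblet-like and from 49.5% to 4.73% for Paneth-like cells, and for goblet-like against crypt from 49.0% to 35.8%. Paneth-like and crypt means did not differ beyond the spread for Ezr, Cdhr2, Cdhr5, Myo1a and Espn.

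**Figure D4:**
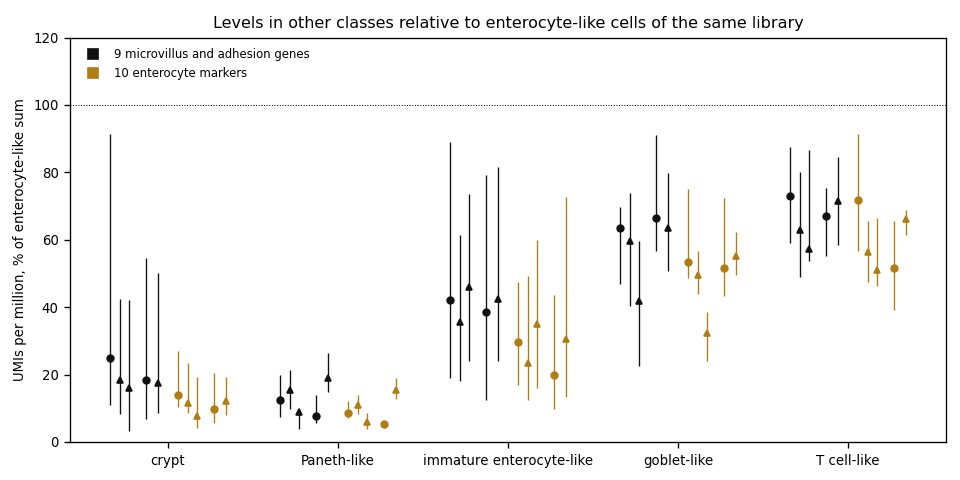
Level in each cell class as a percent of the level in enterocyte-like cells of the same library (y axis), black for the 9 genes and ochre for 10 enterocyte markers, with points at the median gene, bars from the lowest to the highest gene, and from left to right sham 1 to 3 and resection 1 and 2 (circles for sham 1 and resection 1, triangles for the others). The medians of the 9 genes stand at 16.0% to 24.8% in crypt, 35.5% to 46.1% in immature enterocyte-like cells and 57.2% to 73.1% in T cell-like droplets, all under the dotted line at 100%.

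The question put to surgery was whether these genes differ between resection and sham. None of the 9 passed the edgeR test in enterocyte-like cells, where 0.0102% of 9762 genes (1 gene, Slc2a2, the basolateral glucose transporter GLUT2, named after its values were seen) did so, 551 genes had an unadjusted p under 0.05 and DESeq2 called 66. Cdhr2 had 594, 647 and 451 CPM in sham 1 to 3 and 865 and 760.2 in resection 1 and 2. It was the only gene of the 9 whose resection libraries both lay above all sham libraries, which 9.32% of all genes did, at 0.49 ± 0.30 (SE, adjusted p = 0.999). In the 2 sets of libraries that stood apart, the Cdhr2 difference was 0.54 (sham 1 and resection 1) and 0.49 (the other 3). Both signs follow from the order just given and add no support to it. Espn had 269, 605 and 486 in the sham libraries and 398 and 722 in the resection libraries. Its groups overlapped, at 0.25 ± 0.51, and the difference ran from -0.40 to 0.71 over 15 alternatives. Within the sets the resection minus sham difference was 0.57 and 0.41. Sham 1 and resection 1 were below the other 3 libraries by 0.87 on average (-0.87). The sets were drawn from these data and hold 1 resection library each, so the differences within them have no measured spread and were not tested. Ezr had 1187, 937 and 732 in the sham libraries and 1218 and 814 in the resection libraries. It was 0.06 ± 0.30 between groups, 0.04 and -0.02 within the sets, and 0.55 higher in sham 1 and resection 1 than in the other 3. The other differences lay between -0.04 ± 0.29 (Ush1c) and 0.25 ± 0.29 (Cdhr5), and 8 of the 9 were positive. Eps8 had 305, 217 and 264 in the sham libraries and 361 and 272 in the resection libraries, and Vil1 had 1004, 1556 and 1226 against 1253 and 1632, both overlapping.

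Of the marker lists, that of enterocytes alone separated the groups in these cells. The summed level of the 10 enterocyte markers was 20810, 33785 and 32847 CPM in sham 1 to 3 and 40686 and 46116 in resection 1 and 2, so that both resection libraries were above all sham libraries. The 8 immature enterocyte markers overlapped, with 55029 to 101662 in the sham libraries and 55652 to 71651 in the resection libraries. Goblet markers summed to 643 to 1321 in sham and 581 to 840.4 in resection libraries, and Paneth markers to 1650.1 to 7541 and 2798 to 2878. Those of macrophages and B cells, with 2 to 5 of 7 genes at 0, summed to at most 2.34 CPM, and those of stromal and endothelial cells, with 3 to 5 of 6 at 0, to at most 2.08. The part of the enterocyte markers in the values of the 9 genes was not tested.

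In zone 5 all 9 differences were positive and 0 of 9 passed the edgeR test, against 0.0373% of 8037 genes (Slc2a2, Cyp2b10 and Car4, named after their values were seen), with 837 genes at an unadjusted p under 0.05. Both resection libraries lay above all sham libraries for Cdhr2 (0.62 ± 0.37, adjusted p = 0.640) and Eps8 (0.54 ± 0.31, adjusted p = 0.614), and 9.99% of all genes did so. In zone 4 Cdhr2 was 0.88 ± 0.37 higher (adjusted p = 0.400, the lowest of the 9 genes in any class or zone), and 0.203% of 8394 genes passed there. Immature enterocyte-like cells made up a smaller share of zone 5 in resection libraries (0.816% and 0.411%) than in sham libraries (11.3%, 4.21% and 14.6%), and the part of this in the values was not tested. In zones 1, 2 and 3, where 0, 0 and 0.0233% of genes passed (Slc2a2 and Cyp3a11 in zone 3, named after their values were seen), 0 of 9 did. The group difference in the change from zone 1 to zone 5, tested as an interaction, ran from -0.05 ± 0.25 (Ush1c) to 0.47 ± 0.28 (Cdhr2). None of the 9 passed (lowest adjusted p = 0.484, Eps8), against 1.91% of 9547 genes. From zone 1 to zone 5 the median position score went from -0.76 to 0.78, -0.89 to 0.92 and -0.88 to 0.87 in sham 1 to 3. In resection 1 and 2 it went from -1.03 to 1.11 and -1.12 to 1.05, so these zones lay further apart there. The part of this in the interaction was not tested. The group difference in the change from crypt to enterocyte-like cells also gave 0 of 9 (lowest adjusted p = 0.899, Cdhr2), against 0.0854% of 10535 genes.

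**Figure D5:**
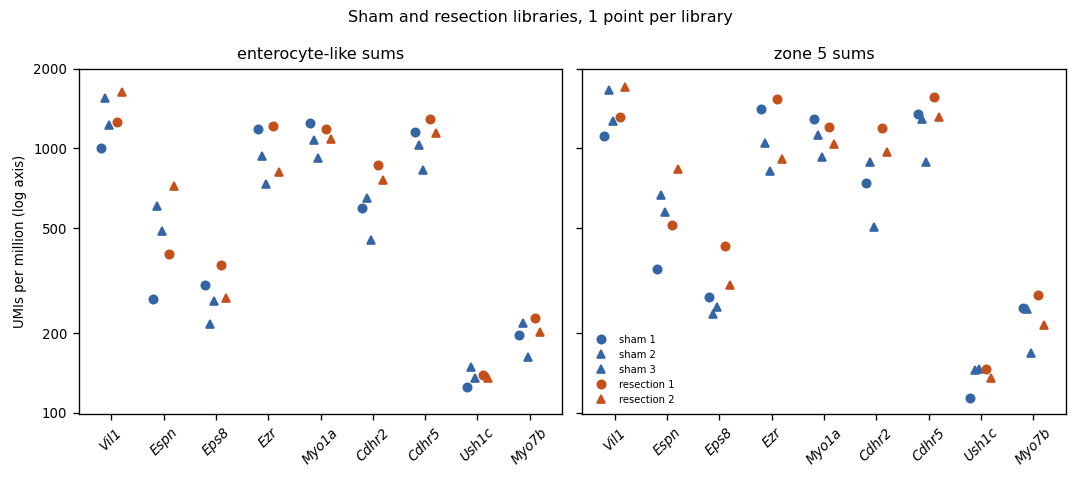
Level of each gene (CPM, y axis, log scale) in enterocyte-like cells and in zone 5, 1 point per library, blue for sham and red for resection, circles for sham 1 and resection 1 and triangles for the other 3 libraries. Both resection points lie above all sham points for Cdhr2 in both panels and for Eps8 in zone 5, and the groups overlap for the other genes.

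In the other classes 0 of 9 passed as well. In goblet-like cells, where 0.0473% of 6342 genes passed (Slc2a2, Cyp3a11 and Fabp1, named after their values were seen) and 249 had an unadjusted p under 0.05, 5 of 9 had both resection libraries above all sham libraries, namely Cdhr2, Cdhr5, Eps8, Espn and Myo7b. For all genes that share was 9.68%. Espn was highest in difference at 1.03 ± 0.42, with 152, 244 and 109 CPM in sham 1 to 3 and 322 and 367 in resection 1 and 2. The median of the 9 genes in these cells lay under that in T cell-like droplets in each library, and the part of background RNA in the group difference was not tested. In immature enterocyte-like cells only Myo7b lay above (87.7, 79.6 and 81.0 against 90.3 and 95.8 CPM), which 5.26% of all genes did, and 0 of 10038 genes passed, with 147 at an unadjusted p under 0.05. In cycling-like cells (0% of 9567 genes passed, 128 at an unadjusted p under 0.05) and Paneth-like cells (0.0323% of 6196 genes) the groups overlapped for 9 of 9. Over all epithelial cells, where 0 of 11757 genes passed (323 at an unadjusted p under 0.05, 32 by DESeq2), 6 of 9 lay above: Cdhr2, Cdhr5, Eps8, Myo1a, Ush1c and Myo7b. The share of all genes that did so was 18.2%, and these sums also hold different proportions of the classes, a part that was not tested.

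Other genes of the brush border, from 7 lists that hold 46 genes besides the 9, mostly climbed along the villus too. Between zones 1 and 5, 24 of the 38 tested were higher, 5 lower and 9 did not pass, beside 2861 higher and 2920 lower of all 9547 genes. Their median change was 0.60 against -0.01 for all genes. From crypt to enterocyte-like cells, 32 of 40 were higher and 8 lower, beside 40.4% and 39.2% of all genes. The counts by list that follow are for zones 1 and 5. The adhesion complex was higher throughout, 6 of 6 with the 4 members counted, and its others were Anks4b (1.51 ± 0.12), a scaffold of the complex, and Calml4 (0.57 ± 0.15), a light chain of its myosin. Of the core and tip list, 5 of 8 were higher, with Pls1 (2.31 ± 0.16), the bundler fimbrin, and Cobl (1.79 ± 0.14), an actin nucleator, furthest. Of the linkers and motors 7 of 10 were higher, with Stk10 (3.65 ± 0.25), a kinase that phosphorylates ezrin, and Pdzk1 (3.46 ± 0.19), a scaffold bound to transporters, furthest. All 5 apical trafficking genes were higher, among them Stx3 (1.27 ± 0.14) and Stxbp2 (0.91 ± 0.11), which work in fusion at the apical membrane.

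The terminal web and keratin list was divided, with 6 of 9 higher and 2 lower. The lower 2 were the keratins Krt19 (-2.08 ± 0.33) and Krt18 (-1.69 ± 0.22). Of 11 paralogues 3 could be tested between zones, and Eps8l3 (1.62 ± 0.19) and Eps8l2 (1.55 ± 0.14), relatives of Eps8, were higher. Of 6 transcription factors linked to the brush border 2 were higher and 2 lower, with Cdx1 (-0.98 ± 0.12) and Klf5 (-0.77 ± 0.16) furthest from 0. No list gene passed between resection and sham in enterocyte-like cells. Of the 38 list genes tested there, both resection libraries lay above all sham libraries for 4 (Pls1, Cobl, Pdzk1 and Stx3) and below them for 4 (among them Krt19, Krt18 and Klf5), beside 9.32% above and 7.31% below over all genes.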

How the data were processed

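The authors deposited a matrix of raw UMI counts for each library, made with Cell Ranger per the labels, whose version the labels give with a question mark. The builds mm10 and GRCm38 come from the submitters' processing notes. Cells under 500 detected genes or over 20% mitochondrial counts were dropped. Doublets were scored against simulated ones within each library, and 720 were removed in all, from 13 in sham 1 to 404 in resection 2. Clustering used 2000 variable genes without the 9 genes and the lists, 30 components, 20 neighbours and Leiden (leidenalg 0.10.2) at resolution 1. Counts were summed per library and class or zone and tested with edgeR 4.0.16 in R 4.3.3 (TMM, filterByExpr, quasi-likelihood F-test, two-sided, Benjamini-Hochberg over all genes tested, threshold 0.05), with library as a block for contrasts within libraries. DESeq2 1.42.0, other clusterings, scalings and left-out libraries were alternatives. Fits were tested on simulated data. The smallest sum had 20 cells or more. All 9 genes are named throughout. Of each list the 2 others with the largest zone 5 to zone 1 change are named, and the 5 genes nearest in profile on log2(CPM + 10). The members and lists were chosen with earlier results of these data known. The stem-like class was not compared between groups, since sham 1 had 0 such cells. T cell-like cells were left out of epithelial comparisons. Unnamed cells were left out of those by class and zone, but cluster 4 was kept in the sums over all epithelial cells. This unnamed cluster of 1467 cells scored 0.648 for enterocyte and 0.578 for immature enterocyte markers. It held 0, 482 and 465 cells in sham 1 to 3 and 18 and 502 in resection 1 and 2. The enterocyte-like and zone comparisons thus lack it, except in the alternative with the unnamed cluster included.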

Additional observations from a re-analysis of the deposited data

Results flagged for a closer look

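Krt19, a keratin of simple epithelia that was not among the 9 genes but on the terminal web list, was the list gene whose fall along the villus differed between the groups by the interaction test. Its zone 1 level was 3477, 4545 and 4642 CPM in sham 1 to 3 and 2881 and 3759 in resection 1 and 2. In zone 5 it was 1495, 1022 and 1899 in the sham libraries and 326 and 252 in the resection libraries, with no overlap. Both resection libraries lay below all sham libraries for 12.9% of 8037 genes there. Immature enterocyte-like cells made up 11.3%, 4.21% and 14.6% of zone 5 in sham 1 to 3 and 0.816% and 0.411% in resection 1 and 2. The part of this in the Krt19 values was not tested. For Krt19 the difference between groups in the change from zone 1 to zone 5 was -1.83 ± 0.32 on the log2 scale (edgeR, adjusted p = 0.00936), and 1.65% of 9547 genes passed as lower in this test. Without resection 2 it was -1.47 with an adjusted p of 0.122, and over all 10 alternatives the value ran from -2.23 to -1.47 and the adjusted p from 3.11e-05 to 0.122. In enterocyte-like cells the group difference itself was -1.56 (edgeR, adjusted p = 0.338), with adjusted p from 2.4e-05 (DESeq2) to 0.999 (without resection 1) over 15 alternatives.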

How the results depend on the processing

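Under every alternative run, 9 of 9 genes passed between crypt and enterocyte-like cells and between zones 1 and 5, and 0 of 9 passed in each resection comparison; between zones 3 and 5 the count was 7 to 8. Signs of the resection differences were less stable, always without passing the threshold. In enterocyte-like cells Ezr was -0.04 with the replicate block, and Ush1c was 0.00 without TMM, 0.05 with the library set as a term, 0.04 with the block, 0.04 with clustering standardized within libraries, 0.01 at Leiden resolution 0.5 and 0.02 with the unnamed cluster included. In zone 5 Myo1a was -0.02 with the block. In the interaction Vil1 was -0.03 and Myo1a -0.05 without TMM, and Myo7b 0.00 with DESeq2 size factors, 0.01 with the unnamed cluster and 0.01 by DESeq2. Leaving out 1 library at a time, the ranges in enterocyte-like cells were -0.20 to 0.43 (Vil1), -0.11 to 0.22 (Ezr), -0.02 to 0.11 (Myo1a), -0.40 to 0.71 (Espn) and -0.21 to 0.09 (Ush1c). In zone 5 they were -0.15 to 0.49 (Vil1), -0.06 to 0.43 (Ezr), -0.02 to 0.13 (Myo1a), -0.17 to 0.79 (Espn) and -0.13 to 0.19 (Ush1c). In the interaction they were -0.12 to 0.24 (Vil1), -0.02 to 0.33 (Ezr), -0.16 to 0.23 (Myo1a), -0.06 to 0.69 (Espn), -0.26 to 0.06 (Ush1c) and -0.14 to 0.12 (Myo7b). Counts over all genes moved more. The interaction called 182 genes, 302 with standardized clustering, 309 with the unnamed cluster and 21 to 249 with 1 library left out (21 without resection 1, 46 without resection 2). Enterocyte-like cells gave 1 gene between groups, 66 by DESeq2, 34 with the set as a term, 219 with the block, 0 with standardized clustering, 0 at resolution 0.5 and 0 to 2 with 1 library left out (0 without each sham library, 2 without each resection library). Zones 5 and 1 gave 5781 genes and 3822 after thinning. The cause was not tested. Replicate numbers are shared by 2 pairs of libraries whose deviations correlated at 0.65 and 0.30 over 9762 genes. Sham 3 and resection 2, which share no number, correlated at 0.55, so these values do not establish a pairing. Where a group kept 1 library, it is assumed to vary like the others. Depth limits crypt values most, with 12 UMIs behind the lowest.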
